A study of Homo sapiens with 3 samples.

Results

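The genes described here are 40 genes of DNA replication and nucleotide supply, chosen by name as those whose probes carry 1 of 40 gene symbols in the array's annotation. They were read by 43 of 24460 gene probes, and all 40 were among the 16031 genes measured, of 17560 symbols on the array. RNA levels were read on 3 TORAY 3D-Gene arrays with 2 dyes, in clones of DLD1, a human colorectal adenocarcinoma cell line. Each clone carries pTetOff and FLAG-tagged mouse Cdx1 or Cdx2, intestinal homeobox transcription factors, whose expression starts when doxycycline (DOX, 0.5 µg/mL in the medium) is withdrawn. Each array set cells expressing the homeoprotein without DOX against cells of the same clone kept with DOX. The conditions were Cdx1 for 12 h, Cdx1 for 24 h and Cdx2 for 24 h, each with 1 array. The absence of DOX, the expression of the homeoprotein and the dye always changed together and cannot be told apart. Nothing states that a culture was repeated or how many clones were used.

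In both channels of all 3 arrays, all 43 probes exceeded the background set by blank spots, and none was saturated. Of the 40 genes, 31 lay in the brightest of 5 equal brightness classes of genes, with a median brightness percentile of 90.7. As a check of the label, 10 of 10 colon epithelium markers with probes were above background on all 3 arrays. Their median Cy5 intensity was 327.1 to 453.5. Their sum was 41840 to 61700, of which KRT18 gave 24820 to 40020. CDX1 (24.3 to 27.9) was dimmer than DCN (105.1 to 142.9), a marker of the other list below. Of 8 fibroblast, immune and endothelial markers with probes, 5 were above background on all 3 arrays, with a median Cy5 intensity of 15.7 to 19.7 against thresholds of 11.5 to 14.5. The summed Cy5 intensity of these 8 was 262 to 348. The human CDX2 gene read -0.46, 0.03 and 0.64 (log2 ratio at Cdx1 12 h, Cdx1 24 h and Cdx2 24 h), and since the expressed protein was of mouse origin, its probe may not read it.

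Replication starts at origins where ORC, CDC6 and CDT1 load the MCM2-7 ring, the core of the replicative helicase, while geminin (GMNN) binds CDT1 and blocks reloading. MCM10 and the GINS complex take part in activating the helicase. Polymerase alpha-primase then lays primers, replication factor C (RFC) loads the PCNA clamp, polymerases delta and epsilon copy the strands, RPA covers single-stranded DNA, and FEN1 and LIG1 finish Okazaki fragments. Ribonucleotide reductase, thymidylate synthase and thymidine kinase supply the nucleotides, and CAF-1 puts histones on the new DNA. Many of these genes are transcribed at the G1/S transition by E2F factors. In the colon, proliferating cells of the crypt express them, and cancer cell lines such as DLD1 do so throughout the culture.

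To show what these genes share in sequence, RefSeq promoters (GRCh38.p14, 250 bases before to 50 after the start) were searched on both strands. An entry was found for 34 of the 40 genes, and MCM4, MCM5, GINS4, POLD3, RPA2 and RPA3 had none. An E2F motif (TTTCCCGC, TTTGGCGC, TTTCGCGC or TTTGCCGC) was present in 17 of 34 windows (50%), against 4.76% of the 12855 windows of tested genes and 3.33% of all 27305 windows. A CCAAT box (CCAAT) was found in 18 windows (52.9%), against 36.5% of tested genes. An E-box (CACGTG) was found in 6 (17.6% against 9.15%), and a CDX motif (TTTATNG) in 1, that of PRIM2 (2.94% against 7.41%). Overlapping matches were counted separately. The 23 E2F matches had a median distance of -39 bases from the start, against -98.5 for the 646 matches of tested genes. A match is a description of letters and not a bound site.

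**Figure D1:**
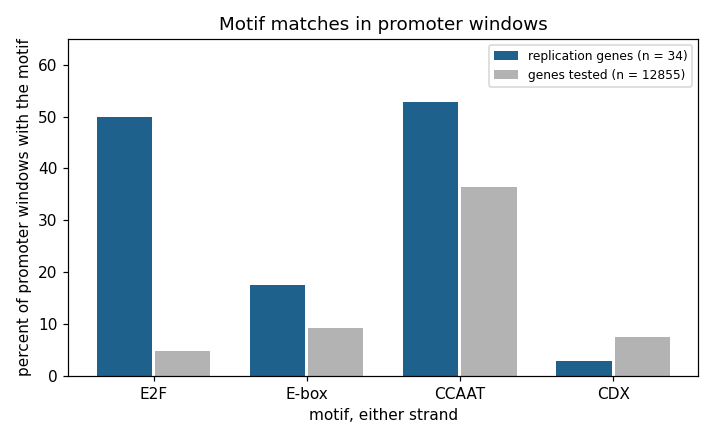
Percent of promoter windows (y axis) that hold each motif (x axis), for the replication genes with an entry (n = 34, blue bars) and for tested genes with an entry (n = 12855, grey bars). The E2F bars stand at 50% and 4.76%, and the CDX bars at 2.94% and 7.41%.

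The stretches below belong to the genes with the largest called changes that hold a match, so that the lower and the higher genes can be read side by side. Capitals mark the matches, and each stretch is written 5′ to 3′ on the strand of its gene. Those of genes that fell are POLD2 (chr7:44123532-44123628, minus strand), MCM2 (chr3:127598388-127598424, plus), LIG1 (chr19:48170439-48170470, minus), MCM7 (chr7:100101395-100101596, minus) and CDC6 (chr17:40287741-40287893, plus).
POLD2: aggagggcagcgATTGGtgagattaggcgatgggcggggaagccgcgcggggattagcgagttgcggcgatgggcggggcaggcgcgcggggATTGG
MCM2: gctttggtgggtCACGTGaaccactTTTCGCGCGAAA
LIG1: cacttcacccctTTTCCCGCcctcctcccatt
MCM7: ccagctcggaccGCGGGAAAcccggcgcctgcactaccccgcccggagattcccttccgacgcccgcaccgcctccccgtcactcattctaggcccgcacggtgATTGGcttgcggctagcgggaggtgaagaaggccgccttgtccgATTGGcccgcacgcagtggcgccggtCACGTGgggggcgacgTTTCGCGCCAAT
CDC6: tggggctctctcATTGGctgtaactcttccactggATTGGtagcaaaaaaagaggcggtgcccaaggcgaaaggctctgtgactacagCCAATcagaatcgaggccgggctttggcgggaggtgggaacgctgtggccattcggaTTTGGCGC

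Those of genes that rose are GMNN (chr6:24774935-24774952, plus), RFC1 (chr4:39366534-39366562, minus) and RPA1 (chr17:1829895-1830015, plus).
GMNN: gcgtcagttggtCACGTG
RFC1: ctgccaaggaaaCCAATatcggatccccc
RPA1: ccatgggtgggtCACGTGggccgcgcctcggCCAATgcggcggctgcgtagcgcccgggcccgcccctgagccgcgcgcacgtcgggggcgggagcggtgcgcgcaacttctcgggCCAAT

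In MCM2 the palindrome TTTCGCGCGAAA was counted as overlapping E2F matches that begin 2 and 6 bases after the start, and in MCM7 an E2F match that begins 9 bases before the start overlaps a CCAAT box. Of the genes called lower, 5 of 7 held an E2F match (MCM2, MCM7, CDC6, CDT1 and LIG1). Of the genes called higher, 0 of the 4 with an entry held one, and of those not called, 12 of 23 did. These shares carry no test.

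The main question was which of these genes changed in the same direction in all 3 sets of cells. Of 40 genes, 7 rose (RPA3, GMNN, CHAF1B, RFC1, GINS4, RPA1 and RPA2), 7 fell (POLD2, MCM2, LIG1, MCM7, CDC6, POLD1 and CDT1) and 26 were not called. A gene was called where limma's test of the mean log2 ratio over the 3 arrays gave an adjusted p under 0.05 (Benjamini-Hochberg over all 16031 genes). The share called higher was 17.5%, against 18.7% of all genes tested, and the share called lower was 17.5%, against 12.1%. In either direction 35% were called, against 30.8%, so the shares were near those of all genes. In bulk RNA, fewer cells in a phase of the cycle and less RNA per cell cannot be told apart. The median of the mean log2 ratios was 0.06, against 0.01 over all genes. None of the 40 (0%) changed 2-fold on any array, against 3.74% of all genes, and 6 (15%) changed at least 1.5-fold on at least 1 array, against 15.3%. All 3 ratios were above 0 for 14 genes (35% against 35.1%) and below 0 for 12 (30% against 30.4%). All ratios are Cy3 over Cy5, which is likely the expressing over the non-expressing cells: the titles, the source names and the study's legend agree on this, but the cell line given for each channel says the opposite, and every sign below would turn if that were right. In the direction taken here, MYC, ID1 and ID3 had mean log2 ratios of -1.14, -2.58 and -1.66. Since 2 of 3 arrays are of Cdx1 cells, and none is a repeat of another, p-values rest on how far 3 unlike sets of cells differ.

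All lower calls were lost in 1 of 2 settings without loess, the brightness-dependent correction, and 5 were kept in the other. With median centring in place of loess and the offset of 50 kept, 31 of 40 genes were called higher and 0 lower. The shares of all genes were 39.7% and 18%. The median of the 40 was 0.48, against 0.09 over all genes. In that setting the brightest class of all genes had a median of 0.54 and the dimmest class -0.19. With loess these were 0.05 and -0.0027. Since 31 of the members lay in the brightest class, this setting cannot tell a change of theirs from that trend. MCM2, LIG1, MCM7, CDC6, POLD1 and CDT1 then lay between 0.06 and 0.17, and POLD2 at -0.17. All 7 genes called higher stayed called, at 0.80 to 1.11. The authors' own deposited values had the blank signal subtracted, no offset, and centring without loess. With them 14 of 14 called genes kept their sign and 9 were still called. These were 4 higher and 5 lower (MCM2, MCM7, POLD1, POLD2 and LIG1), while CDC6, CDT1, GINS4, RPA1 and RPA2 were not called. The shares of the 40 genes called higher and lower were thus 10% and 12.5%, against 20.9% and 14.5% of 15085 genes. With an offset of 200 CDC6, GMNN, GINS4, RFC1 and LIG1 were not called. With the background column of the scanner files 1 of 14, GMNN, was still called, and of all genes 1.55% were higher and 1.66% lower. That column followed the Cy5 spot signal, with rank correlations of 0.943, 0.883 and 0.963 on the 3 arrays. Under it the mean of PCNA was 3.09, against 0.17 in the main setting.

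**Figure D2:**
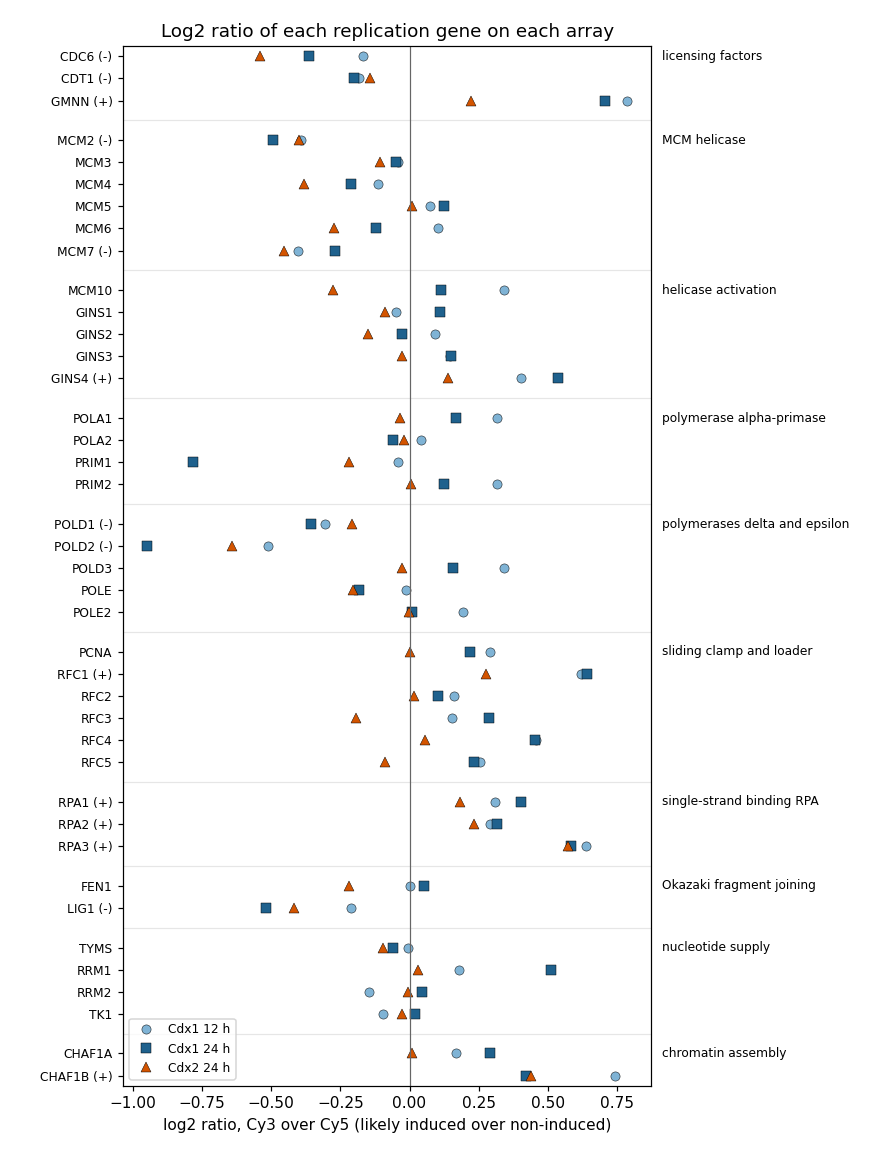
Log2 ratio of Cy3 over Cy5 (x axis) of each of the 40 genes (y axis, grouped by role) on the Cdx1 12 h (light circles), Cdx1 24 h (dark squares) and Cdx2 24 h (orange triangles) arrays, 1 value per gene and array; (+) and (-) mark genes called higher or lower. All 3 RPA genes lie right of 0 on every array, and PRIM1 and POLD2 have the lowest values, both on the Cdx1 24 h array.

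**Figure D3:**
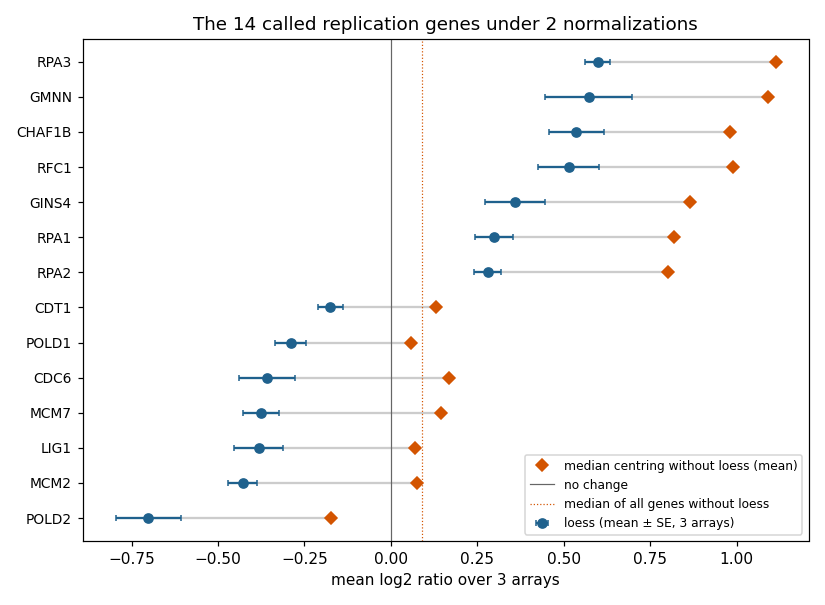
Mean log2 ratio over 3 arrays (x axis) of the 14 called genes (y axis) with loess (blue circles, bars give the SE) and with median centring without loess (orange diamonds); the dotted line is the median of all genes without loess, 0.09. The higher genes stay to the right, and of the lower genes POLD2 alone stays left of 0. The setting without loess kept the offset of 50 and left the brightness trend in.

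Of the genes that govern the loading of MCM2-7, the loading factors CDC6 and CDT1 fell, while GMNN, which blocks reloading, rose. GMNN, which holds CDT1 inactive after origins have fired, had log2 ratios of 0.79 with Cdx1 at 12 h, 0.71 with Cdx1 at 24 h and 0.22 with Cdx2. Its mean was 0.57 ± 0.13 (SE, n = 3 arrays, limma adjusted p = 0.0352), a rise of 48.6%. Both GMNN probes were high on the Cdx1 arrays (0.76 and 0.81 at 12 h, 0.68 and 0.73 at 24 h) and lower on the Cdx2 array (0.22 and 0.23). CDC6, the ATPase that loads MCM2-7 with ORC, had -0.17, -0.36 and -0.54 in the same order of arrays and fell by 0.36 log2 units (SE 0.08, limma adjusted p = 0.0375), with its lowest value on the Cdx2 array. CDT1, the partner of CDC6 in loading and the target of geminin, had -0.18, -0.20 and -0.14 and fell by 0.18 (SE 0.04, limma adjusted p = 0.0291). The log2 ratio of GMNN thus exceeded that of CDT1 by 0.97, 0.91 and 0.36 on the 3 arrays, and by 1.18, 1.12 and 0.58 without loess. The calls of GMNN and CDC6 were lost on leaving out single Cdx1 arrays: neither was called without Cdx1 at 24 h, GMNN was not called without Cdx1 at 12 h, and CDC6 was not called without Cdx2. CDT1 was not called with any 1 array left out.

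Of the 6 MCM2-7 helicase subunits, MCM2 and MCM7 fell and MCM3, MCM4, MCM5 and MCM6 were not called. MCM2 had -0.39, -0.50 and -0.40 and fell by 0.43 log2 units (SE 0.04, limma adjusted p = 0.008), so that it decreased by 25.7%. MCM7 had -0.40, -0.27 and -0.45 and fell by 0.38 (SE 0.05, limma adjusted p = 0.0128). Both were thus lower on every array. MCM7 was not called without Cdx1 at 12 h, while MCM2, POLD2, RPA3 and CHAF1B stayed called whichever array was left out. The other subunits ranged from -0.38 (MCM4 with Cdx2) to 0.12 (MCM5 with Cdx1 at 24 h). MCM4 had -0.12, -0.21 and -0.38 and missed the threshold (limma adjusted p = 0.0556), and MCM5 was positive on all 3 arrays (0.07, 0.12 and 0.0096). MCM2 and MCM5 had the lowest and the highest mean of the 6 subunits and were paired after the values were seen. Each was read by 1 probe, so a difference between probes cannot be told from one between subunits. The log2 ratio of MCM2 minus that of MCM5 was -0.47, -0.62 and -0.41, and -0.47, -0.67 and -0.42 without loess.

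Among the genes of helicase activation, GINS4 alone was called. GINS4, a subunit of the GINS complex that joins CDC45 and MCM2-7, had 0.40, 0.54 and 0.14 and a mean of 0.36 ± 0.09 (SE, limma adjusted p = 0.0441). It was not called when either Cdx1 array was left out, with another background or offset, with the deposited values or with no filter on dim probes. GINS1, GINS2 and GINS3 lay between -0.15 and 0.15 on all arrays with means of -0.01, -0.03 and 0.09. MCM10, which binds the helicase as it is activated, had 0.34, 0.12 and -0.28, so that its arrays did not share a sign.

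The polymerases split by subunit. POLD2, an accessory subunit of polymerase delta, was the lowest of all 40 genes, with -0.51, -0.95 and -0.64 and a mean that fell by 0.70 log2 units (SE 0.09, limma adjusted p = 0.0128), so that it decreased by 38.5%. It was low on every array and lowest with Cdx1 at 24 h. POLD1, the catalytic subunit of the same enzyme, had -0.31, -0.36 and -0.21 and fell by 0.29 (SE 0.05, limma adjusted p = 0.0167). It was not called without either Cdx1 array. POLD3, another accessory subunit, had 0.34, 0.16 and -0.03, so that the difference of POLD2 from POLD3 was -0.85, -1.11 and -0.62. PRIM1, the catalytic subunit of primase, had -0.04, -0.78 and -0.22 and was not called (limma adjusted p = 0.173), since 1 array, Cdx1 at 24 h, held most of the difference. Its partner PRIM2 had 0.32, 0.12 and 0.0070. The remaining genes, POLA1 and POLA2 of polymerase alpha and POLE and POLE2 of polymerase epsilon, lay between -0.20 and 0.32 and were not called.

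All 3 subunits of RPA rose, and they did so on each array. RPA3, the smallest subunit, had 0.64, 0.58 and 0.57 and a mean of 0.60 ± 0.04 (SE, limma adjusted p = 0.00624), a rise of 51.4%, and it was the only one of the 40 genes called at a minimum fold of 1.2. RPA1, the large DNA-binding subunit, had 0.31, 0.40 and 0.18 (mean 0.30 ± 0.06, SE, limma adjusted p = 0.024). RPA2, which is phosphorylated in the response to replication stress, had 0.29, 0.32 and 0.23 (mean 0.28 ± 0.04, SE, limma adjusted p = 0.0128). The 3 values of RPA2 lay close together, as did those of RPA3. RPA3 exceeded RPA1 by 0.33, 0.18 and 0.39. RPA1 and RPA2 were not called without Cdx1 at 12 h or without Cdx1 at 24 h, nor with an offset of 0, the blank mean subtracted, or the deposited values. RPA1, RPA2 and RPA3 had means of 0.82, 0.80 and 1.11 with median centring without loess, and of 0.31, 0.28 and 0.58 with the deposited values.

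Of the sliding clamp and its loader, only RFC1 was called. RFC1, the large subunit of the clamp loader, had 0.62, 0.64 and 0.28 and a mean of 0.51 ± 0.09 (SE, limma adjusted p = 0.0199), and it was high on both Cdx1 arrays. Its 2 probes agreed in sign but not in size, with 0.83, 0.87 and 0.40 for one and 0.41, 0.41 and 0.16 for the other. It was not called when either Cdx1 array was left out. RFC2, RFC3, RFC4, RFC5 and PCNA were positive on both Cdx1 arrays (0.10 to 0.46) and between -0.19 and 0.06 on the Cdx2 array. PCNA itself, the clamp, had 0.29, 0.22 and 0.0021 (limma adjusted p = 0.138).

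LIG1, the ligase that seals Okazaki fragments, had -0.21, -0.52 and -0.42 and fell by 0.38 log2 units (SE 0.07, limma adjusted p = 0.0239). It was not called without Cdx1 at 24 h or without Cdx2. FEN1, the flap nuclease of the same step, had a mean of -0.05 and was not called. CHAF1B, the middle subunit of the histone chaperone CAF-1, had 0.75, 0.42 and 0.44 and a mean of 0.54 ± 0.08 (SE, limma adjusted p = 0.0152), with the highest value at 12 h. CHAF1A, the large subunit of CAF-1, had 0.17, 0.29 and 0.0081 (limma adjusted p = 0.153).

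None of the 4 nucleotide supply genes was called. RRM1, the large subunit of ribonucleotide reductase, had 0.18, 0.51 and 0.03 (limma adjusted p = 0.157). RRM2, the small subunit, had -0.15, 0.04 and -0.0046, and TK1, thymidine kinase, lay between -0.10 and 0.02. A further probe that the annotation names C2orf48 and RefSeq names RRM2 was not counted as a member. It gave -0.17, -0.27 and -0.30. TYMS, thymidylate synthase, was read by 2 probes of opposite sign, 0.32, 0.26 and 0.25 against -0.33, -0.38 and -0.44, so that its mean of -0.05 stood for neither of them. By its brighter probe alone TYMS had a mean of 0.28 (limma adjusted p = 0.0126). For comparison, where a gene had 2 used probes (2003 genes), the pooled SD of single probes within a gene was 0.20, 0.22 and 0.17 on the 3 arrays. The SD of a difference between 2 probes is larger than this.

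The next comparison set the Cdx2 array against both Cdx1 arrays. For 30 of 40 genes (75%) the Cdx2 ratio lay below both Cdx1 ratios, against 32.3% of all genes, and for 2, POLD1 and CDT1, it lay above both, against 32.9%. Among the 31 genes in the brightest class, 23 lay below both, against 30.4% of all genes there. The median difference (Cdx2 minus the mean of both Cdx1 arrays) was -0.16, against 0.0010 over all genes. The Cdx2 array had fewer strong ratios as a whole, with 4.61% of genes at least 1.5-fold higher and 1.73% at least 1.5-fold lower, against 8.68% and 4.07% with Cdx1 at 24 h. Where both Cdx1 ratios were above 0, the Cdx2 ratio was below both for 21 of 22 members, against 54.5% of all such genes. Where both were below 0, it was further below for 6 of 12, against 15.2%. The members were chosen with these arrays known, so these counts carry no test.

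In limma's test of this difference, which has 1 residual degree of freedom, 0 of 16031 genes reached an adjusted p under 0.05. At an unadjusted p under 0.05, 7 of 40 members (17.5%) passed, against 5.26% of all genes. All 7 were lower with Cdx2, against 2.94% of all genes, and 0 were higher, against 2.33%. Among all genes the share lower with Cdx2 rose with brightness and exceeded 2.94% in the brightest class, where 31 members lay. The 2.94% is thus not the share of equally bright genes. The 7 were GMNN, MCM10, RFC3, RFC4, RFC1, RFC5 and GINS4, of which MCM10, RFC4 and RFC5 are named after their values were seen. In this fit SEs and p-values rest on the spread between Cdx1 at 12 h and at 24 h, moderated over all genes, and not on repeats. The Cdx1 mean also takes in 12 h, while Cdx2 was read at 24 h only. The largest difference was that of GMNN, at -0.53. MCM10 followed with -0.51 ± 0.14 (SE, limma adjusted p = 0.935). RFC3, a small clamp loader subunit, had 0.15, 0.29 and -0.19, a difference of -0.41 ± 0.11 (SE). RFC4, another, had 0.46, 0.45 and 0.06, a difference of -0.40 ± 0.09 (SE). RFC5 had 0.25, 0.23 and -0.09, and its difference was -0.33 ± 0.09 (SE). For RFC1 the difference was -0.35 ± 0.09, and for GINS4 it was -0.33 ± 0.11 (SE). In 4 of 5 RFC subunits the Cdx2 array thus lay 0.33 to 0.41 below the Cdx1 mean. With other settings the count of 7 became 3 without loess, 4 with the background column (and 4 higher), 1 with offset 0, 9 with offset 200 and 0 with the deposited values, and the count of 30 became 24, 23, 30, 30 and 27. The shares of all genes in these other settings are not given here, so these counts are not set against them. With the background column the difference of MCM10 turned to 0.31 and that of GMNN shrank to -0.11.

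**Figure D4:**
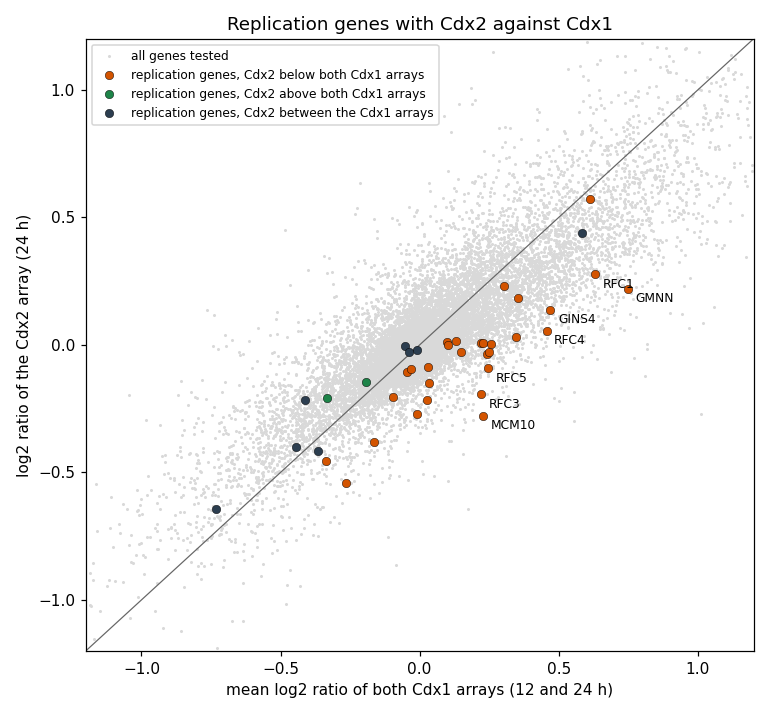
Log2 ratio on the Cdx2 24 h array (y axis) against the mean log2 ratio of the Cdx1 12 h and 24 h arrays (x axis) for the 40 replication genes (coloured) and all genes tested within the axes (grey); the line marks equal values. Of the 40 genes, 30 have a Cdx2 ratio below both Cdx1 ratios, and the 7 named genes are those with an unadjusted p under 0.05.

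At 24 h, Cdx2 and Cdx1 differed most, downward, in GMNN (-0.49), RRM1 (-0.48) and RFC3 (-0.48), which lay at the percentiles 2, 2.1 and 2.1 of all genes. They differed most, upward, in PRIM1 (0.57, percentile 99), POLD2 (0.31) and POLD1 (0.15). Per the study's methods, Cdx1 came up sooner than Cdx2 after induction, so that the homeoprotein, its pace of induction and the clone cannot be told apart. Between the Cdx1 arrays, 24 h minus 12 h, PRIM1 had the largest decrease (-0.74, percentile 0.5 of all genes), before POLD2 (-0.44) and CHAF1B (-0.32). RRM1 had the largest increase (0.33, percentile 94.9), before RRM2 (0.19) and GINS1 (0.16). The median difference of the 40 genes was -0.06. With 1 array a time point, none of these differences has a test.

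The Cy5 intensities of non-expressing cells were compared between the clones. In non-expressing cells at 24 h (Cy5, quantile-scaled, Cdx2 clone minus Cdx1 clone) the members had a median difference of 0.13 on the log2 scale. CDC6 (0.61), POLE2 (0.60) and MCM7 (0.52) were brighter in the Cdx2 clone. RPA3 (-0.52), LIG1 (-0.45), POLD1 (-0.38) and TK1 (-0.37) were dimmer in it. These are single arrays with no test, and labelling and clone cannot be told apart. RPA3 thus rose by nearly the same log2 ratio in both clones from unlike Cy5 intensities.

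Genes of neighbouring steps were described in the same way, and median centring without loess again left the brightness trend in. Of all genes tested 18.7% were called higher and 12.1% lower (39.7% and 18% without loess, 20.9% and 14.5% with the deposited values). With loess the shares higher and lower were 5.88% and 64.7% in purine and pyrimidine synthesis and 15.4% and 38.5% in thymidylate and folate. They were 25% and 6.25% in origin recognition and firing and 14.3% and 28.6% in E2F and G1/S control. In G2 and mitosis they were 52.6% and 15.8%. Of 17 measured genes of purine and pyrimidine synthesis 11 fell and 1 rose, with a median of -0.35 (5 higher and 1 lower, median 0.07, with median centring without loess, and 0 higher and 10 lower, median -0.47, with the deposited values). ADSL, PPAT and ATIC, all of purine synthesis, fell by 0.77, 0.59 and 0.57 log2 units. Of 13 thymidylate and folate genes 5 fell and 2 rose (1 and 7 without loess, 4 and 2 with the deposited values). The mitochondrial folate enzymes MTHFD2 and MTHFD1L fell by 0.81 and 0.70, while RRM2B, the p53-inducible small subunit of ribonucleotide reductase, rose by 1.22 ± 0.06 (SE, limma adjusted p = 0.00624) with 1.11, 1.35 and 1.19 on the 3 arrays. The log2 ratios of RRM2B thus lay above those of RRM1 and RRM2 on each array.

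Of 16 origin recognition and firing genes 4 rose and 1 fell, with a median of 0.27 (14 higher and 0 lower without loess, 4 and 1 with the deposited values). ORC4, an ORC subunit, had 1.16, 1.44 and 0.85 and a mean of 1.15 ± 0.12 (SE, limma adjusted p = 0.00877). ORC6, another, and TOPBP1, a firing factor, rose by 0.43 and 0.40. The median Cdx2 minus Cdx1 difference of these 16 genes was -0.33, next to -0.16 for the members. Of 24 fork and termination genes 5 rose and 3 fell (21 and 0 without loess, 5 and 3 with the deposited values). These shares, 20.8% and 12.5%, were near the 18.7% and 12.1% of all genes. ASF1A, a histone chaperone, rose by 0.90 and POLD4 of polymerase delta by 0.46, and POLE3 of polymerase epsilon fell by 0.49 (0.03 without loess). The polymerase delta genes were therefore unlike, as POLD4 rose, POLD1 and POLD2 fell and POLD3 was not called.

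Of 21 E2F and G1/S genes 6 fell and 3 rose (0 and 9 without loess, 5 and 3 with the deposited values). CDK4, a G1 kinase, fell by 0.75 and E2F4, a repressive E2F factor, by 0.44, while RB1, the pocket protein that binds E2F, rose by 0.55. Of 19 G2 and mitosis genes 10 rose and 3 fell, with a median of 0.36 (17 and 0 without loess, 9 and 1 with the deposited values). CENPE, a kinetochore motor, MKI67, a marker of cycling cells, and TTK, a checkpoint kinase, rose by 1.16, 0.92 and 0.91. Like GMNN, CENPE and TTK were lower with Cdx2 (0.72 and 0.49) than with Cdx1 at 24 h (1.45 and 1.03), and MKI67 had 0.79 and 0.99. On leaving out 1 array, TOPBP1, ORC6, POLE3, RB1, CENPE and TTK were not called without Cdx1 at 12 h, TOPBP1, POLD4, MTHFD2, MTHFD1L and TTK without Cdx1 at 24 h, and POLD4, MTHFD2, MTHFD1L, ADSL and ATIC without Cdx2, with limma adjusted p from 0.0503 to 0.146. With an offset of 200 the same genes except POLE3 were not called. All kept their sign in these settings. With the background column of the scanner files, purine and pyrimidine synthesis had 0 genes higher and 2 lower, and G2 and mitosis 2 higher and 0 lower. In that setting 1.55% of all genes were called higher and 1.66% lower. Of the genes named from the related lists, only ASF1A, POLE3, POLD4, PPAT and MKI67 were called there. These lists were chosen with results of these arrays known and carry no test as lists.

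**Figure D5:**
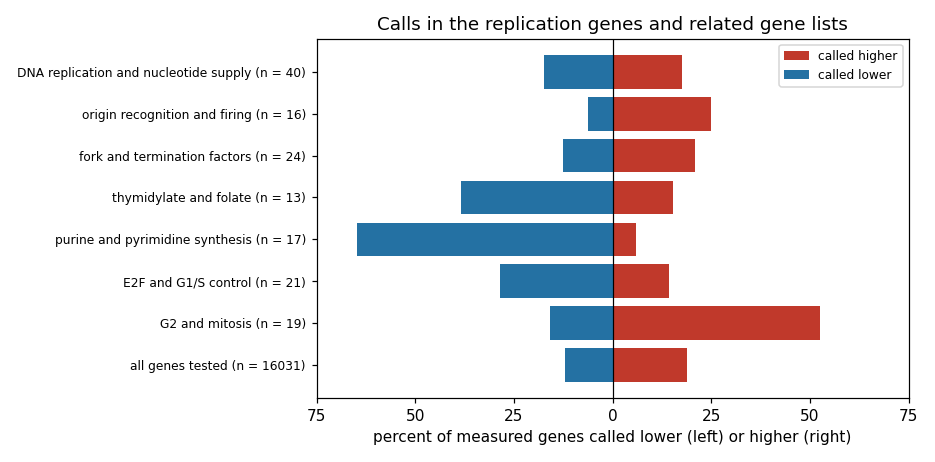
Percent of measured genes called lower (left, blue) or higher (right, red) on the x axis, for the replication genes, 6 related lists and all genes tested (y axis, with the number of measured genes). The bars of all genes tested stand at 18.7% higher and 12.1% lower, and those of fork and termination factors at 20.8% and 12.5%. Purine and pyrimidine synthesis has 11 of 17 genes lower and G2 and mitosis 10 of 19 higher with loess; with median centring without loess 5 of 17 purine and pyrimidine genes were called higher and 1 lower, and with the deposited values 0 higher and 10 lower.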

How the data were processed

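The scanner files that the authors deposited give the median intensity of each spot in Cy5 (635 nm) and Cy3 (532 nm) without background subtraction. Their deposited value table holds log2 ratios. Comparison with the scanner files showed these to be Cy3 over Cy5 once the mean of blank spots was taken off, with each array's median set to 0, and they were used as an alternative only. Scanner settings and software were not given in any source used here.

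In limma 3.58.1 (R 4.3.3), normexp without local background (offset 50) preceded loess with a span of 0.3, in which control spots had no weight. The offset shrinks ratios of dim probes. Probes with a flagged spot (1, 6 and 3) were dropped. Background was set at 2 SD over the trimmed mean of 2680 blanks, and a used probe exceeded it in at least 1 channel on each of the arrays. A gene is the mean of its used probes, named by the platform annotation with symbols brought up to date through RefSeq (GRCh38.p14). No table column was left unmapped.

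Change shared by the arrays was tested by limma with an intercept, and the difference of Cdx2 from Cdx1 by a group term, both two-sided with adjustment by Benjamini-Hochberg over all genes. The number of arrays limits the precision. The members and lists were chosen with earlier results of these data known. Named with every array's value were members that were called, changed 1.5-fold on any array, or had 1 of the 3 largest differences each way between the 24 h arrays or between times, together with partners of these in a complex, which were added after seeing the values. From each other list the 3 called genes with the largest mean change were named, and promoter stretches were shown for up to 8 called members. The alternatives were centring without loess, other backgrounds and offsets, the deposited values, other filters on dim probes, the brightest probe, another variance model, a least fold of 1.2 and the omission of each array.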

Additional observations from a re-analysis of the deposited data

Results flagged for a closer look

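In 14 of the 40 genes, conditions had log2 ratios of opposite sign. The differences were not tested, since each condition has 1 array, and most of these ratios are smaller than the SD between probes of a gene (0.17 to 0.22).

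With Cdx2 the ratio was below 0 where both Cdx1 ratios were not, in 8 genes. MCM10 had -0.28 with Cdx2, against 0.34 and 0.12 with Cdx1. FEN1 had -0.22, against 0 and 0.05, RFC3 -0.19, against 0.15 and 0.29, and RFC5 -0.090, against 0.25 and 0.23. POLA1 (-0.035), POLD3 (-0.027), GINS3 (-0.027) and POLE2 (-0.0024) lay close to 0 with Cdx2.

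Between Cdx1 at 12 and 24 h the sign changed in 6 genes. At 24 h MCM6 had -0.12 (0.10 at 12 h), POLA2 -0.061 (0.04), GINS2 -0.028 (0.09), GINS1 0.11 (-0.05), RRM2 0.045 (-0.15) and TK1 0.019 (-0.10).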

How the results depend on the processing

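Each array already pairs cells of a clone, and between groups no paired analysis was possible because each held 1 array, which also limits every call. With median centring without loess 6372 genes and 31 members were higher and 2890 genes and 0 members lower (4 and 5 members with the deposited values), with a members' median of 0.48 and 6 members changed 2-fold on an array. Turned from negative to positive were MCM2 (0.075), MCM3 (0.43), MCM4 (0.29), MCM6 (0.41), MCM7 (0.14), CDC6 (0.17), CDT1 (0.13), GINS1 (0.39), GINS2 (0.50), POLA2 (0.46), POLD1 (0.059), PRIM1 (0.14), FEN1 (0.47), LIG1 (0.069), TYMS (0.45), RRM2 (0.44), TK1 (0.45) and POLE3 (0.032).

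With the file's background column 248 genes were higher and 266 lower, 1 member was higher and 0 lower, 5 members changed 2-fold, and 1443 genes had an unadjusted limma p under 0.05 between Cdx2 and Cdx1 (4 members each way). MCM4 (0.024), CDC6 (0.12), GINS1 (0.12), RFC2 (-0.020), RFC3 (-0.19), RFC5 (-0.087), POLA2 (0.27), POLD1 (0.21), PRIM2 (-0.14), FEN1 (0.0083), LIG1 (0.080), TYMS (0.23) and CHAF1A (-0.072) turned.

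Members called higher numbered 4 with the blank mean subtracted, with offset 0, with offset 200 and with the deposited values. MCM10 turned to -0.0081 with the blank mean subtracted and -0.0087 with offset 0, GINS2 to 0.0024 with offset 200, and TYMS to 0.28 by its brightest probe. With offset 200, 1908 genes were higher and 1234 lower. With offset 0 and with the deposited values 1 member each changed 2-fold, against 6 at a 1.5-fold threshold, and 1 and 0 members were lower with Cdx2 at an unadjusted limma p under 0.05 (3 without loess). At a minimum fold of 1.2, 679 genes were higher and 251 lower, with 1 member higher and 0 lower.

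Leaving out 1 array gave 1391 to 2239 genes higher and 713 to 1203 lower, and 2 to 8 members higher and 3 to 4 lower. Of the 14 called members, 6 stayed called without Cdx1 at 12 h, 5 without Cdx1 at 24 h and 11 without Cdx2, all with the same sign. Means that crossed 0 ranged from -0.081 to 0.23 in MCM10, -0.069 to 0.029 in GINS1, -0.089 to 0.033 in GINS2, -0.019 to 0.22 in RFC3, -0.039 to 0.012 in POLA2, -0.11 to 0.027 in FEN1 and -0.076 to 0.020 in RRM2.

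The filters on dim probes, the variance model and the brightest probe left 13 or 14 of the 14 calls. The count of members with the Cdx2 array below both Cdx1 arrays (30) was recomputed after seeing the data and ranged from 23 to 30. Causes were not tested.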
